A study of Mus musculus with 10 samples.

Results

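The genes described here encode the proteasome, its activators, its inhibitor and its assembly chaperones. They were chosen by name, as the protein-coding genes whose symbols begin with Psma, Psmb, Psmc, Psmd, Psme, Psmf or Psmg followed by a digit. This rule took 49 of the 24888 genes measured, and it used no measured value. Of these 49 genes, 48 passed the filter on low values and were tested. Psma8, the testis form of an alpha subunit, did not pass, with 0 to 14.0 scaled reads in SPOP_CKI hearts and 6.73 to 11.8 in Cre_control hearts. Psmc3ip fits the name rule but encodes a meiotic recombination protein that is not a proteasome subunit.

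The proteasome degrades proteins that carry chains of ubiquitin. Its core is a barrel in which outer rings of alpha subunits gate the entrance and inner rings of beta subunits hold the proteolytic sites. A regulatory particle caps the barrel, with receptors that bind ubiquitin, an ATPase ring that unfolds the substrate, and a lid that removes the ubiquitin chain. In heart muscle this pathway turns over contractile proteins. SPOP, the protein made in excess in these hearts, is a substrate adaptor of a cullin ubiquitin ligase, which acts upstream of the proteasome by marking proteins for it.

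Whole hearts of 10 mice were profiled by sequencing of poly(A) RNA. The SPOP_CKI group held 5 hearts with cardiac SPOP overexpression, obtained with a Cre transgene whose promoter, that of alpha-myosin heavy chain, is active in cardiomyocytes. The Cre_control group held 5 hearts whose labels read WT in the title and Myh6Cre as genotype, so both groups carried the Cre transgene. All mice were labelled male, were 8 to 10 weeks old and were in sham condition, and their strain is not named in the labels. Values are scaled reads, in which the read count of a gene is divided by its library's size factor. Log2 fold changes are SPOP_CKI over Cre_control on the log2(value + 1) scale, from limma with Benjamini-Hochberg adjustment over 14212 genes and a threshold of 0.05.

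Library depth was 15316293 to 17114869 reads. Spop had 31897 ± 6254 scaled reads in SPOP_CKI hearts and 3425 ± 317 in Cre_control hearts (SD, n = 5 each), and no library overlapped between the groups. Libraries SPOP_CKI 1, SPOP_CKI 3 and Cre_control 5 held 4190 to 7511 Xist reads and no reads of the Y-linked genes examined, against their label, while the others held 0 to 5 Xist reads. The summed cardiomyocyte markers were 247873 to 551446 scaled reads in SPOP_CKI hearts and 575466 to 739138 in Cre_control hearts, with 3 of 10 markers lower and 0 higher. The summed leukocyte markers were 4441 to 23764 in SPOP_CKI hearts and 4906 to 8243 in Cre_control hearts, with 5 of the 10 markers tested higher. The summed fibroblast markers were 31589 to 141604 in SPOP_CKI hearts and 28241 to 32605 in Cre_control hearts, with 2 of 8 markers higher. Endothelial markers were lower for 3 of 6 and erythroid markers for 4 of 5. Over all genes tested, 10.0% were called higher and 12.3% lower. In such bulk tissue, fewer cells of a type and less RNA per cell cannot be told apart, and the part of these cell types in the results below was not tested.

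Promoter windows from RefSeq (GRCm38.p6, 250 bases before to 50 bases after the annotated start) were found for 41 of the 49 genes. Those printed below are the windows of Psmd4 and Psme1, the called genes that had an entry, of Psmb5 and Psmb6, catalytic subunits with a match to the antioxidant response element core, and of Psmb9, whose window shares 275 bases with that of Tap1 on the opposite strand. Capitals mark matches on either strand to TGACNNNGC (the antioxidant response element core, bound by Nfe2l1 and Nfe2l2), to the interferon-stimulated response element core (GAAA, any 2 bases, then GAAA), or to CCAAT. Each is written along the strand of its gene, at chr3:95042565-95042864 (minus strand) for Psmd4, chr14:55578244-55578543 (plus strand) for Psme1, chr14:54617946-54618245 (minus strand) for Psmb5, chr11:70525107-70525406 (plus strand) for Psmb6 and chr17:34187281-34187580 (minus strand) for Psmb9.
Psmd4: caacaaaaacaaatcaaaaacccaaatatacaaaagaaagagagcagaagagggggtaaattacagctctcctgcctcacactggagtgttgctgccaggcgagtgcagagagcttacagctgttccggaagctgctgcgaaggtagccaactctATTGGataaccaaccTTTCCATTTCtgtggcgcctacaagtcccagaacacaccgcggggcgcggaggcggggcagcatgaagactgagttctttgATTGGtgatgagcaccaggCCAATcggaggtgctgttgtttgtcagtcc
Psme1: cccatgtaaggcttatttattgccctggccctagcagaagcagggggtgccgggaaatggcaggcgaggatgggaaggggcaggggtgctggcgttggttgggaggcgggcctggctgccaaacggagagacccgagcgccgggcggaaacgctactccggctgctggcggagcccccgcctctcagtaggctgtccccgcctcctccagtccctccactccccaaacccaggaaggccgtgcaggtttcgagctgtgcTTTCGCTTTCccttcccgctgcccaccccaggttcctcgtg
Psmb5: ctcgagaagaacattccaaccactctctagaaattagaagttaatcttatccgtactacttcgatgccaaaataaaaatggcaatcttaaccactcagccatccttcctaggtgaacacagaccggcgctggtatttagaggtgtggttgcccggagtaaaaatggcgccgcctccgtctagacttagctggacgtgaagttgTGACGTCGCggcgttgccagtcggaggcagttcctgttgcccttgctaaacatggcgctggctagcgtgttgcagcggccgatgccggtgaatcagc
Psmb6: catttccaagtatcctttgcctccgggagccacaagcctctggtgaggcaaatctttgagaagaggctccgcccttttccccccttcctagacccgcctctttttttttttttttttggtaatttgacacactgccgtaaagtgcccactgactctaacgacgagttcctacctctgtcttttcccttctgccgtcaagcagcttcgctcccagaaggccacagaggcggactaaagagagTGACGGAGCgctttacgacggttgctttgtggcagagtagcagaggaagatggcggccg
Psmb9: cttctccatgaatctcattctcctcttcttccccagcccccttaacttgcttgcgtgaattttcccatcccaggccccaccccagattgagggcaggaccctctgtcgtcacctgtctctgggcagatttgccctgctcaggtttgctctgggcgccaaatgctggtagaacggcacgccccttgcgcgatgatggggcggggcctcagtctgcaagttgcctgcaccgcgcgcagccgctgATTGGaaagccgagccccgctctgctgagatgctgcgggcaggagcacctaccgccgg
The antioxidant response element core was found in the windows of 6 genes, namely Psmb5, Psmb6, Psmc6, Psmd9, Psmd12 and Psme4, or 13.6% of the 44 windows, against 12.4% of all 32851 promoter windows. The interferon-stimulated response element core was found for 5 genes, namely Psmb3, Psmd4, Psmd9, Psme1 and Psmg4, or 11.4% of windows against 3.44% of all. CCAAT, which no other searched motif overlapped in the windows printed, was found in 31.8% of windows against 37.4% of all. A match is a description of the letters only. The called members Psmd4 and Psme1 both held the interferon core, at position -80 and position 10 from the start, and the immunoproteasome genes Psmb8, Psmb9 and Psmb10 had no match to it in these windows.

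Few proteasome genes passed the test. Of the 48 genes tested, 0 were called higher, where the share of all tested genes called higher was 10.0%, and 3 were called lower, where that share was 12.3%. The 3 were Psmd4, a ubiquitin receptor of the regulatory particle, Psmb7, a proteolytic beta subunit, and Psme1, a subunit of the PA28 activator. They made up 6.25% of the genes tested, against 22.3% of all genes called in either direction. A further 45 genes were not called. The log2 fold change was negative for 36 genes and positive for 12, with a median of -0.22, against -0.11 over all genes tested. The median absolute log2 fold change was 0.272 against 0.531 over all genes. At an unadjusted p under 0.05, 2 of the 48 proteasome genes were higher and 13 lower. Over all 14212 genes tested, 2395 were higher and 2866 lower. In either direction this was 31.2% of the proteasome genes, against 37% of all genes.

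The count rested in part on single libraries. It was 10 of 48 without SPOP_CKI 3, all lower. There 31.0% of all genes were called in either direction, and 2456 of 14212 were lower. The genes added were Psma7, Psmb3, Psmb4, Psmb6, Psmc5, Psmd3, Psmf1 and Psmg2, while Psmb7 was lost. The count was 6 without SPOP_CKI 1, all lower, where 22.5% of all genes were called and 1780 genes were lower. It was 6 without SPOP_CKI 5, with 3 higher (Psmd5, Psmd14 and Psmg3), where 23.5% were called, 1501 higher and 1841 lower. It was 1 without SPOP_CKI 4, where 16.6% of all genes were called and 1294 were lower. It was 1 without any of Cre_control 1 to 4, where 13.8% to 16.2% were called and 1063 to 1242 were lower. Without Cre_control 5 it was 2, where 17.7% were called and 1356 were lower. These proteasome calls were all lower. Without the 3 libraries with Xist reads it was 11, all lower, where 30.7% of all genes were called and 2410 genes were lower. These 11 included 4 beta ring genes, Psmb3, Psmb4, Psmb6 and Psmb7, but not Psme1. GC centring was a correction for transcript GC content chosen after seeing the data. With it, the 3 genes called lower were Psmd4, Psmb7 and the ATPase gene Psmc2, the last at -0.53. There 18.2% of all genes were called in either direction, and 1289 of 14201 were lower.

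**Figure D1:**
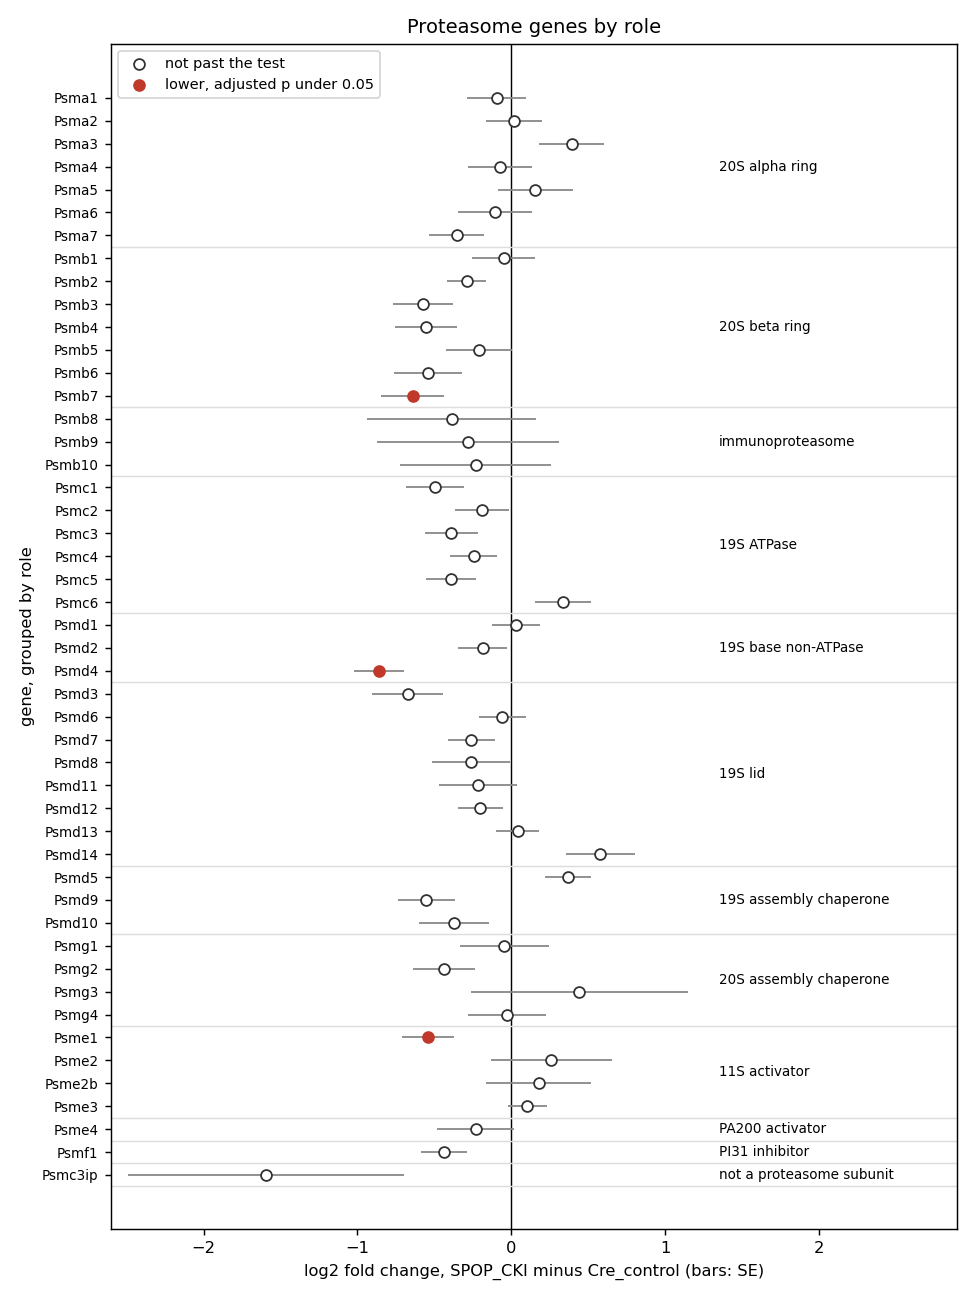
Log2 fold change of SPOP_CKI over Cre_control hearts with its standard error for the 48 proteasome genes tested, grouped by role down the vertical axis. Filled points passed the test. The 7 beta ring genes all sit below 0, while the 7 alpha ring genes lie on both sides of it.

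The values of 5 genes did not overlap between the groups and were lower in every SPOP_CKI heart, namely Psmb3, Psmd3, Psmd4, Psmd9 and Psmf1. Over all genes tested, 12.3% were without overlap in that direction. No proteasome gene was without overlap in the higher direction, against 9.01% of all genes. On reads recovered from the scaled values, the edgeR quasi-likelihood test called 1 proteasome gene higher and 2 lower, where it called 22.3% of all genes in either direction. DESeq2 called 1 higher and 7 lower, where it called 29.3% of all genes. In the authors' deposited table, 2 of the genes, Psmd4 and Psmb7, had an adjusted p under 0.05, against 26.5% of the genes tested here.

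The rings of the core barrel are described by their counts and medians, and the difference between the rings was not tested. The alpha ring genes Psma1 to Psma7, which form the outer rings and the gate, had a median log2 fold change of -0.08, with 3 positive and 4 negative values and no gene called. They ranged from -0.36 for Psma7 to 0.39 for Psma3, with adjusted p of 0.164 and 0.201 by limma. The beta ring genes Psmb1 to Psmb7 had a median of -0.54 with all 7 values negative and 1 gene called. At an unadjusted p under 0.05, 5 of them were lower, or 71.4%. Of all 14212 genes, 37% were under it in either direction, and 2866 were lower. Their values ran from -0.64 for Psmb7 to -0.05 for Psmb1. With GC centring the medians were -0.25 for the alpha ring and -0.30 for the beta ring. The median transcript GC content was 45.0% in the alpha ring and 51.0% in the beta ring.

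Psmb7 encodes beta2, the subunit with trypsin-like activity (ENSMUSG00000026750, chr2:38588036-38644087, minus strand, mm10). It had 1225, 1007, 784.7, 873.9 and 1112 scaled reads in SPOP_CKI hearts 1 to 5, against 1673, 1597, 1288, 2282 and 1109 in Cre_control hearts 1 to 5. The groups overlapped, since Cre_control 5 lay below the SPOP_CKI hearts 1 and 5. The log2 fold change was -0.64 with a standard error of 0.206 and an adjusted p of 0.0443 by limma. The call was lost without any 1 of 7 libraries, namely SPOP_CKI 2, 3 or 4, at adjusted p of 0.0643, 0.0509 and 0.0935 by limma, and Cre_control 1, 2, 3 or 4, at 0.101, 0.0908, 0.0547 and 0.101. With no filter on low values its adjusted p was 0.0665, and with GC centring its log2 fold change was -1.07. Psmb7 overlaps Nek6 on the other strand, whose mean was 246.3 scaled reads in SPOP_CKI hearts and 130.8 in Cre_control hearts, and the labels do not say whether the counting used strand.

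The other catalytic beta subunits were not called. Psmb5, which encodes beta5 with chymotrypsin-like activity, had 1090, 938.4, 747.9, 1146 and 938.8 scaled reads in SPOP_CKI hearts, against 1192, 1211, 846.9, 1710 and 809.2 in Cre_control hearts, and its groups overlapped. Psmb6, which encodes beta1 with caspase-like activity, had 1248, 1047, 1410, 999.3 and 858.5 in SPOP_CKI hearts, against 1826, 1702, 1086, 2346 and 1300 in Cre_control hearts. Cre_control 3, the lowest of its group, and Cre_control 5 both lay within the SPOP_CKI range of Psmb6. The log2 fold changes were -0.21 for Psmb5 and -0.54 for Psmb6, with adjusted p of 0.502 and 0.0969 by limma. Among the structural beta subunits, Psmb3 was just above the threshold at -0.57 with an adjusted p of 0.0552 and no overlap, Psmb4 had -0.55 at 0.0669, and Psmb2 had -0.29 at 0.126.

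In the regulatory particle, the change that passed the test was in a ubiquitin receptor. Psmd4 (ENSMUSG00000005625, chr3:95032694-95042614, minus strand, mm10) encodes the Rpn10 receptor that binds ubiquitin chains at the base. It had 1144, 1273, 860, 891.3 and 1079 scaled reads in SPOP_CKI hearts, against 2049, 1912, 1682, 2283 and 1578 in Cre_control hearts. Every SPOP_CKI heart was below every Cre_control heart. The log2 fold change was -0.86 with a standard error of 0.161, which is 1.81-fold lower, at an adjusted p of 0.00446 by limma. Psmd4 was called under all 22 alternatives, with log2 fold changes of -0.93 to -0.63. Adrm1 encodes Rpn13, a receptor bound at the base. It had 693, 829.4, 740, 633.4 and 550.3 scaled reads in SPOP_CKI hearts, against 1349, 1275, 1201, 1447 and 1106 in Cre_control hearts, again with no overlap. It fell by 0.89 on the log2 scale, at an adjusted p of 0.0024 by limma, but with GC centring it was -0.38 at an adjusted p of 0.282.

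The remaining genes of the base and lid were not called. The ATPases Psmc1 to Psmc6, which form the unfolding ring, had a median log2 fold change of -0.32, with 5 of 6 negative and Psmc6 positive at 0.34. Psmc1 came closest, at -0.50 with an adjusted p of 0.0806 by limma. The scaffolds of the base, Psmd1 and Psmd2, had log2 fold changes of 0.03 and -0.19. The 8 lid genes, Psmd3, Psmd6, Psmd7, Psmd8, Psmd11, Psmd12, Psmd13 and Psmd14, had a median of -0.21, from -0.67 for Psmd3 to 0.58 for Psmd14. Psmd3, a lid scaffold, had 1855, 1823, 750.5, 1238 and 1423 scaled reads in SPOP_CKI hearts, against 2367, 2034, 2160, 2276 and 1944 in Cre_control hearts, with SPOP_CKI 3 the lowest and no overlap, at an adjusted p of 0.0553 by limma.

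Psmd14 encodes Rpn11, the lid enzyme that cuts the ubiquitin chain off the substrate, and its value ran opposite to most of the particle. It had 899.8, 960.7, 1341, 949.7 and 518.4 scaled reads in SPOP_CKI hearts, against 661.1, 692, 588.4, 510.4 and 556.2 in Cre_control hearts. SPOP_CKI hearts 1 to 4 were above every Cre_control heart, and SPOP_CKI 5 lay within the control range. The log2 fold change was 0.58 with a standard error of 0.223 and an adjusted p of 0.0824 by limma. It was called without SPOP_CKI 5, at 0.78 with an adjusted p of 0.00884 by limma, and by edgeR at an adjusted p of 0.0492 and DESeq2 at 0.033. Without the 3 libraries with Xist reads it was 0.36, at an adjusted p of 0.272 by limma.

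**Figure D2:**
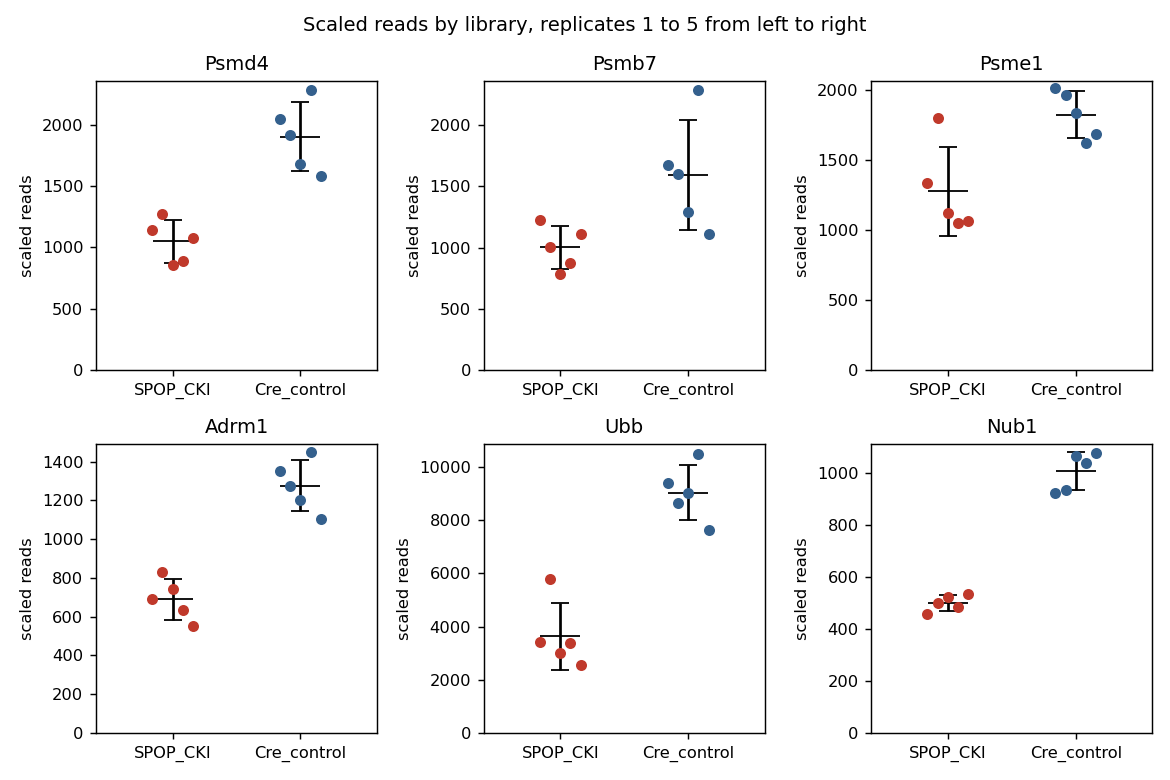
Scaled reads in each heart for the called proteasome genes Psmd4, Psmb7 and Psme1 and for Adrm1, Ubb and Nub1 of the accessory list, with SPOP_CKI hearts left of Cre_control hearts and bars for the group mean and SD. Every SPOP_CKI heart lies below every Cre_control heart for Psmd4, Adrm1, Ubb and Nub1, and the groups overlap for Psmb7 and Psme1.

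Among the activators, Psme1 passed the test. Psme1 (ENSMUSG00000022216, chr14:55578123-55581529, plus strand, mm10) encodes PA28 alpha, which caps the core in place of the regulatory particle and is induced by interferon. It had 1334, 1804, 1123, 1053 and 1066 scaled reads in SPOP_CKI hearts, against 2012, 1965, 1838, 1621 and 1689 in Cre_control hearts. SPOP_CKI 2 lay within the control range and the other SPOP_CKI hearts below it. The log2 fold change was -0.54 with a standard error of 0.17 and an adjusted p of 0.0406 by limma. With GC centring it was -0.03 at an adjusted p of 0.931 by limma, and without the libraries with Xist reads its adjusted p was 0.0773. The call was also lost without SPOP_CKI 1, 4 or 5, at adjusted p of 0.0528, 0.0933 and 0.068 by limma, and without Cre_control 1, 2, 3, 4 or 5, at 0.0999, 0.0931, 0.079, 0.0592 and 0.0604. With no filter on low values its adjusted p was 0.0785, and by edgeR it was 0.0591. Psme1 overlaps Emc9 on the other strand, whose mean was 107.6 scaled reads in SPOP_CKI hearts and 339.2 in Cre_control hearts, with a log2 fold change of -1.70.

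The other activators and the inhibitor were not called. Psme2, which encodes PA28 beta, had 316.2, 932.6, 223.3, 469.6 and 266.9 scaled reads in SPOP_CKI hearts, against 343.8, 378.7, 189.3, 536.3 and 251.9 in Cre_control hearts, with SPOP_CKI 2 the highest of all. Its log2 fold change was 0.26 and that of Psme2b was 0.18, and both are uncertain because they are near-identical copies among which reads can be split. Psme3, the nuclear PA28 gamma, had 0.10, and Psme4, which encodes PA200, had -0.23. Psmf1, which encodes the core inhibitor PI31, was lower in every SPOP_CKI heart, at 255.3 to 381.3 scaled reads against 404.5 to 477.5 in Cre_control hearts. Its log2 fold change was -0.44 and its adjusted p 0.0567 by limma.

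Assembly chaperones were not called. Psmd9, which encodes a chaperone of the base, had 127 to 214.1 scaled reads in SPOP_CKI hearts and 235.8 to 290.3 in Cre_control hearts, with no overlap, a log2 fold change of -0.55 and an adjusted p of 0.0516 by limma. Psmd5 and Psmd10, which encode other chaperones of the base, had 0.37 and -0.37, at adjusted p of 0.0972 and 0.251 by limma. The chaperones of the core, Psmg1 to Psmg4, had log2 fold changes of -0.05, -0.44, 0.44 and -0.03. Psmc3ip had 0 to 35.2 scaled reads in SPOP_CKI hearts and 17.0 to 38.6 in Cre_control hearts, and was not called.

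The interferon-inducible subunits Psmb8, Psmb9 and Psmb10 replace Psmb5, Psmb6 and Psmb7 in the immunoproteasome, which cuts peptides for display on MHC class I. None of the 3 was called, but the SPOP_CKI hearts were far apart. Psmb8 had 72.28, 729.4, 131.4, 227.4 and 114.5 scaled reads in SPOP_CKI hearts, against 269.5, 283.2, 119, 391.2 and 197.2 in Cre_control hearts. Psmb9 had 54.21, 680.7, 104.2, 256.1 and 94.47 in SPOP_CKI hearts, against 186.8, 216.7, 119, 333.5 and 156.5 in Cre_control hearts. Psmb10 had 608, 1449, 141.9, 826.8 and 458.2 in SPOP_CKI hearts, against 697.1, 701.6, 497.7, 795.8 and 545.5 in Cre_control hearts. SPOP_CKI 2 was the highest library for all 3 genes and SPOP_CKI 1 or 3 the lowest. The highest value of Psmb8 was 10.1 times the lowest in SPOP_CKI hearts and 3.29 times in Cre_control hearts. The log2 fold changes of Psmb8, Psmb9 and Psmb10 were -0.39, -0.28 and -0.23, at adjusted p of 0.632, 0.754 and 0.758 by limma. No direction can be read from these values. The means of scaled reads were 255 in SPOP_CKI and 252 in Cre_control hearts for Psmb8, 237.9 and 202.5 for Psmb9, and 696.8 and 647.6 for Psmb10. The log2 fold changes of the 3 genes were -0.89, -0.81 and -0.58 without SPOP_CKI 2, and 0.13, 0.35 and 0.30 without the libraries with Xist reads. Without SPOP_CKI 1 they were -0.06, 0.10 and -0.27, and without SPOP_CKI 3 they were -0.28, -0.14 and 0.25. They were 0.03, 0.25 and 0.13 by edgeR and 0.02, 0.24 and 0.11 by DESeq2.

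The share of immunoproteasome subunits relative to the subunits they replace was compared per kilobase of gene length. The deposited lengths were 899, 1872 and 3421 bases for Psmb5, Psmb6 and Psmb7, and 2736, 3659 and 1705 for Psmb8, Psmb9 and Psmb10. The annotation release behind these lengths is not given, and the percentages depend on them. Psmb8 was 2.18% to 25.5% of Psmb5 in SPOP_CKI hearts (median 5.77%) and 4.62% to 8.01% in Cre_control hearts (median 7.52%). Psmb9 was 2.22% to 33.3% of Psmb6 in SPOP_CKI hearts (median 5.63%) and 5.23% to 7.27% in Cre_control hearts (median 6.16%). Psmb10 was 36.3% to 289% of Psmb7 in SPOP_CKI hearts (median 99.6%) and 70.0% to 98.7% in Cre_control hearts (median 83.6%). By exact two-sided permutation tests over 252 arrangements of the libraries, the differences in mean log2 ratio were -0.18, 0.26 and 0.41, with p of 0.762, 0.722 and 0.405 and an adjusted p of 0.762 for each over the 3 ratios. The smallest p this design allows is 0.00794.

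**Figure D3:**
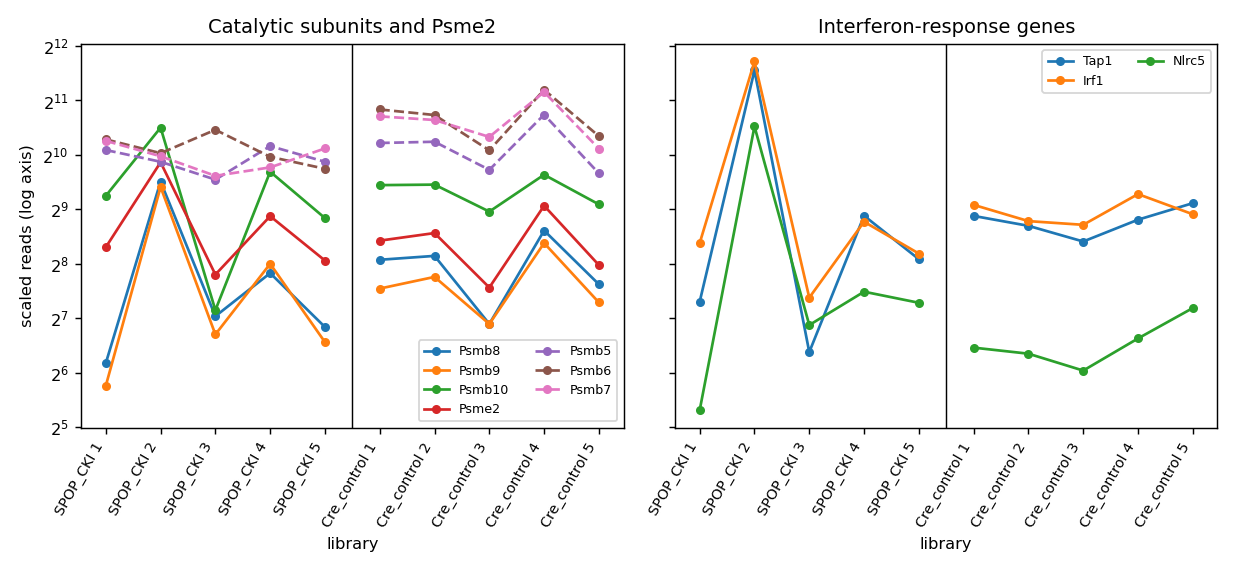
Scaled reads in each heart on a log axis, SPOP_CKI hearts left of Cre_control hearts, for the immunoproteasome genes, Psme2 and the subunits replaced (dashed) in the left panel and for Tap1, Irf1 and Nlrc5 in the right panel; lines only join points of a gene. SPOP_CKI 2 is the highest heart for Psmb8, Psmb9 and Psmb10, at 729.4, 680.7 and 1449.

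Other genes of antigen presentation were examined beside them. Of 12 genes on that list, 3 were called higher and 0 lower, where 10.0% of all genes were called higher. In either direction 25% of the list was called, against 22.3% of all genes. The 3 were Pdia3 and Calr, chaperones of the peptide-loading complex, at log2 fold changes of 1.27 and 1.02, and Erap1, which trims peptides, at 0.86. Their adjusted p were 0.000618, 0.00613 and 0.009 by limma, and Erap1 was 0.52 at an adjusted p of 0.0536 with GC centring. Over the 12 genes of the list, the log2 fold change was positive for 7 and negative for 5, with a median of 0.09. Tap1, which carries peptides into the endoplasmic reticulum, had 158.1, 3004, 83.2, 472.2 and 271.6 scaled reads in SPOP_CKI hearts and 340.1 to 554.1 in Cre_control hearts. Tap1 overlaps Psmb9 on the other strand, and the labels do not say whether the counting used strand. SPOP_CKI 2 was also the highest library for the regulators Irf1 at 3367 and Nlrc5 at 1472. These genes were named after their values were seen, and none of the 3 was called. The summed leukocyte markers were 17083 in SPOP_CKI 2 and 23764 in SPOP_CKI 4, and 4441 to 7029 in the other SPOP_CKI hearts. Their part in the spread of the immunoproteasome genes was not tested.

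Genes that supply, control or feed the proteasome were followed on a list of 34, of which 33 were tested. Of these, 2 were higher, 6 lower and 25 not called, so that 24.2% were called against 22.3% of all genes. The median log2 fold change was -0.05. Nub1, which brings substrates tagged with ubiquitin-like proteins to the proteasome, had 456.2 to 534.9 scaled reads in SPOP_CKI hearts and 924.2 to 1077 in Cre_control hearts, and fell by 1.01 on the log2 scale at an adjusted p of 0.000541 by limma. Keap1, a cullin adaptor that holds Nfe2l2 in check, had 183.9 to 533.6 in SPOP_CKI hearts and 784.5 to 1156 in Cre_control hearts, and fell by 1.21 at an adjusted p of 0.0103 by limma. With GC centring its log2 fold change was -0.55, at an adjusted p of 0.00861. Uba6, an enzyme that activates ubiquitin, had 344.2 to 551.5 in SPOP_CKI hearts and 103.8 to 237.9 in Cre_control hearts, and rose by 1.38 at an adjusted p of 0.00288. Ube3c, a ubiquitin ligase bound to the proteasome, rose by 0.60 at an adjusted p of 0.014.

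The ubiquitin genes and the regulators of the proteasome differed among themselves. Ubb, which encodes chains of ubiquitin, had 2547 to 5778 scaled reads in SPOP_CKI hearts and 7630 to 10476 in Cre_control hearts, and fell by 1.37 on the log2 scale at an adjusted p of 0.00184 by limma. Ubiquitin genes share sequence, and the labels do not say how reads were split among them. Nfe2l1, the transcription factor that drives proteasome genes when proteasome activity falls short, had 5394, 6456, 2041, 5881 and 7883 scaled reads in SPOP_CKI hearts, against 10343, 9588, 8079, 10844 and 9069 in Cre_control hearts, with no overlap. Its log2 fold change was -0.92 at an adjusted p of 0.0552 by limma, and it was called without SPOP_CKI 3, at -0.59 and 0.022, and without SPOP_CKI 5, at -1.08 and 0.0321. It was also called with a filter at 50, at 0.0491, with a pseudocount of 10, at 0.0474, with array weights, at 0.00483, and by DESeq2, at 0.0286. Without the libraries with Xist reads Nfe2l1 was -0.53 at an adjusted p of 0.0682, and with GC centring it was -0.43 at 0.128. Akirin2, which in human cells carries proteasomes into the nucleus, fell by 0.48 at an adjusted p of 0.0374, by limma. That call was lost without SPOP_CKI 2 or 4, at 0.0516 and 0.0539, and without Cre_control 1, 2, 3 or 5, at 0.0868, 0.0909, 0.0909 and 0.0523. It was also lost with no filter on low values, at 0.102, and without the libraries with Xist reads, at 0.0643. Pomp, which matures the core, had -0.05 at 0.854.

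The hearts of the SPOP_CKI group were less alike than the controls. The median SD of log2 values was 0.378 in SPOP_CKI hearts and 0.158 in Cre_control hearts over the 48 proteasome genes, and it was larger in SPOP_CKI hearts for 44 of them (91.7%). Over all genes it was 0.546 and 0.264, and larger in SPOP_CKI hearts for 86.7%. Of the 10 libraries, SPOP_CKI 3 was the highest for 16 proteasome genes and the lowest for 13, SPOP_CKI 5 was the lowest for 17, and Cre_control 4 was the highest for 13. The log2 fold change and transcript GC content had a Pearson correlation of -0.31 and a Spearman correlation of -0.34 across the 48 genes, and of -0.40 and -0.44 across all 14201 genes with a GC value. These are descriptions across genes of the same libraries.

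**Figure D4:**
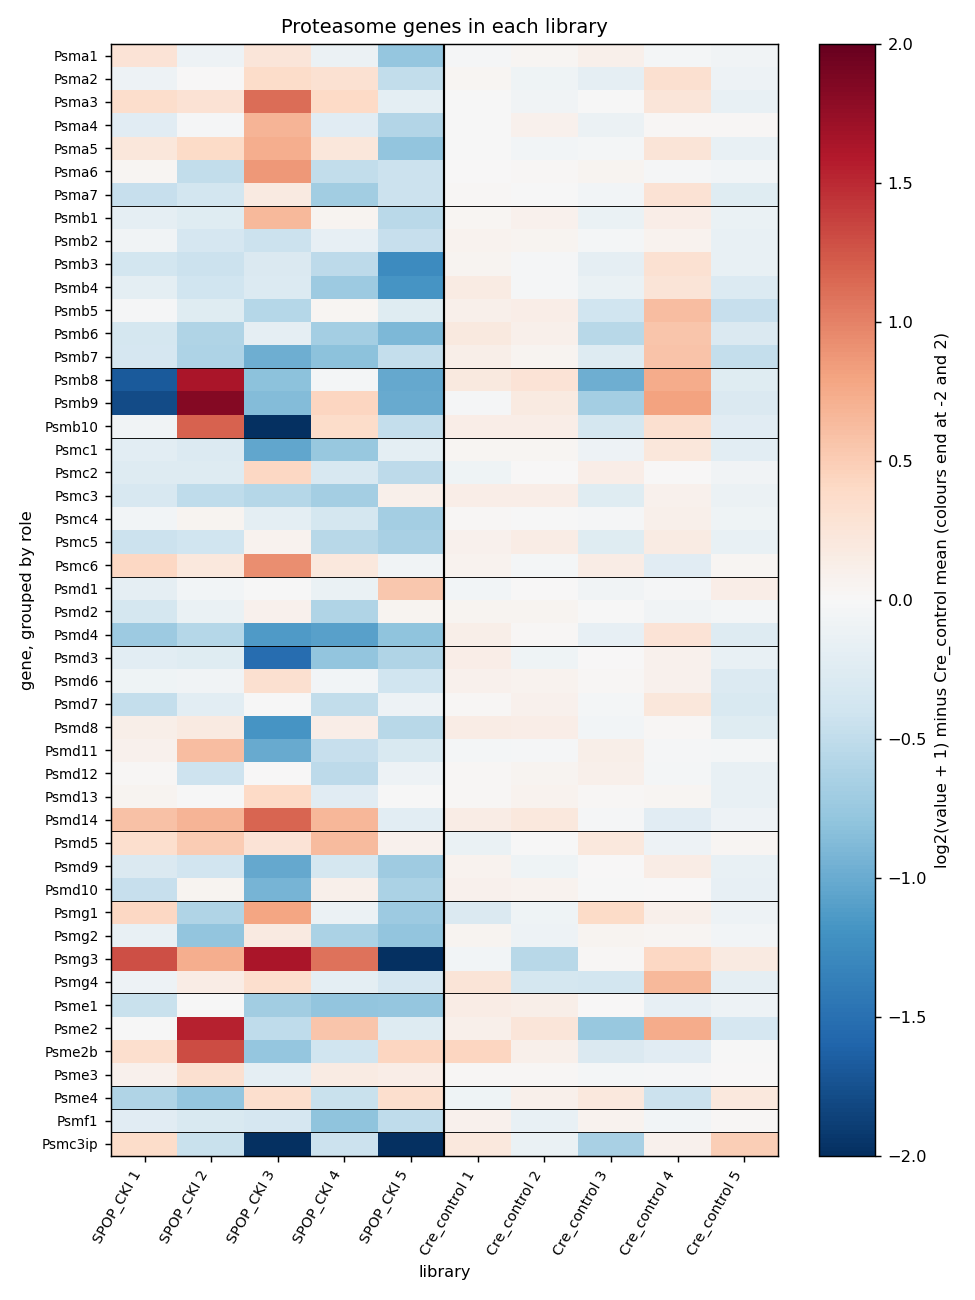
Difference in log2(value + 1) from the Cre_control mean for each proteasome gene (rows, by role) in each heart, SPOP_CKI hearts to the left of Cre_control hearts. The SPOP_CKI columns vary more than the Cre_control columns, and SPOP_CKI 3 holds both the highest and the lowest values for many genes.

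Levels per kilobase of gene length spanned a wide range, and their order depends on the deposited gene lengths. Psma6 was highest at 1870 scaled reads per kilobase in SPOP_CKI and in Cre_control hearts, followed in the controls by Psmb5 at 1081 in SPOP_CKI and 1283 in Cre_control hearts, Psmc3 at 980 and 1267, and Psmb4 at 879.5 and 1266. Psmb8 and Psmb9, whose products replace Psmb5 and Psmb6 subunits, had 93.2 and 65.0 in SPOP_CKI hearts and 92.1 and 55.3 in Cre_control hearts. Psmb10 had 408.7 in SPOP_CKI and 379.8 in Cre_control hearts, against 292.5 and 464.8 for Psmb7, whose product it replaces. Psma8 was the lowest, at 4.48 in SPOP_CKI and 5.14 in Cre_control hearts. The sum of scaled reads over the 49 genes was 53282 to 69174 in SPOP_CKI hearts and 62627 to 71077 in Cre_control hearts, and the ranges overlapped.

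**Figure D5:**
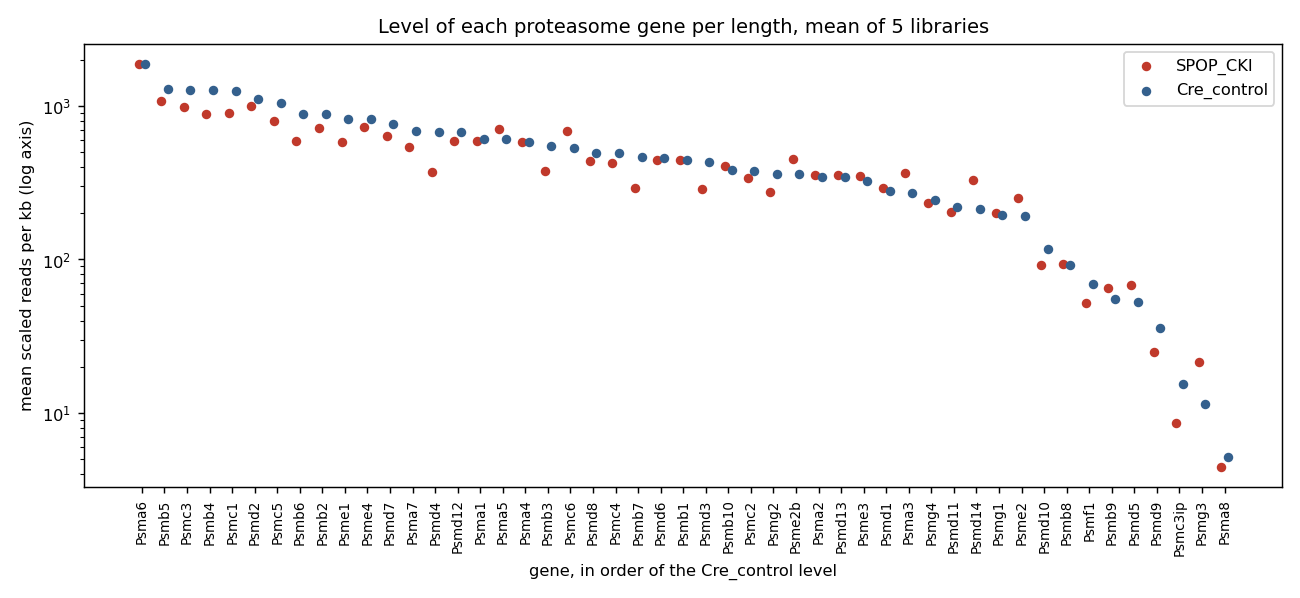
Mean scaled reads per kilobase of gene length for the proteasome genes on a log axis, with SPOP_CKI and Cre_control hearts drawn as separate points. Psma6 is highest and Psma8 lowest in both groups, and the immunoproteasome genes Psmb8 and Psmb9 lie below the subunits they replace. Psmb10 lies above Psmb7 in SPOP_CKI hearts and below it in Cre_control hearts.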

How the data were processed

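Poly(A) RNA of whole heart was sequenced in 10 libraries, and the labels' titles and genotypes gave the groups. Per the submitters' processing notes, the authors used featureCounts 1.5.0-p3, DESeq2 1.20.0 and the mm10 build. The aligner, annotation release and strand setting were not given in the sources used here. Library columns deposited by the authors hold a signal of size-factor scaled reads. From them whole reads were recovered for 100% of values (tolerance 0.001). The authors also deposited log2 fold changes, p-values and adjusted p-values per gene.

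The test was limma 3.58.1 in R 4.3.3 (lmFit and eBayes, trend and robust options on), two-sided, on log2(value + 1) with genotype alone in the model. Genes entered with 10 or more scaled reads in 5 or more libraries. P-values were adjusted by Benjamini-Hochberg over all genes tested, and the threshold was 0.05. The test was also run on simulated data in which both groups had the same spread. The 2 groups of hearts differed in spread, so that run does not check the test for such data. Alternatives were edgeR 4.0.16 and DESeq2 1.42.0 on recovered reads, other scalings, filters and pseudocounts, library weights, a replicate block, libraries left out, and GC centring with transcript GC content from GENCODE M21. Catalytic subunit ratios were compared with an exact permutation test.

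The members and lists were chosen with earlier results of these data known. All proteasome genes chosen by the name rule are named. Called members, the immunoproteasome subunits and those they replace are given in every library. From the accessory list, Nfe2l1, Pomp and up to 8 called genes are named, and from the antigen presentation list up to 4 called genes. Some genes of these lists are not reported here. Replicates of a group differed by more than counting error, with a chi-square per degree of freedom of 13.8 or more. Nothing in the labels says how the hearts were bred or processed, so the p-values speak of library-to-library spread, which may be technical. Promoter windows were taken from RefSeq.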

Additional observations from a re-analysis of the deposited data

Results flagged for a closer look

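Over 106 sets of 5 libraries, 8 had a library farther from the others than Dixon's critical value of 0.71 at the 95% level, where chance gives about 1 set in 20. Psma6 was 4190 scaled reads in SPOP_CKI 3, against 1635 to 2363 in the other SPOP_CKI hearts. Psmc2 was 2540 in SPOP_CKI 3, against 1319 to 1592 in the others. Psmb8 was 729.4 in SPOP_CKI 2, against 72.28 to 227.4 in the others. Psmd1 was 2932 in SPOP_CKI 5, against 1792 to 2019 in the others. Among the controls, Psmd6 was 1065 in Cre_control 5 against 1307 to 1367 in the others, Psmd13 was 1039 in Cre_control 5 against 1178 to 1211, and Psmd11 was 1511 in Cre_control 3 against 1360 to 1378. The log2 ratio of Psmb8 to Psmb5 was -2.82 in Cre_control 3, against -2.14 to -2.03 in the other Cre_control hearts.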

How the results depend on the processing

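Psmd4 kept its direction and its call in all 22 alternatives run, and no called proteasome gene changed sign. Of the 45 genes not called, 22 changed sign under at least 1 alternative and 17 were called under at least 1. The count of proteasome genes called lower was 5 with quantile normalization (26.8% of all genes called), 1 with no filter (10.5%), 7 with a filter at 50 (27.4%), 7 with DESeq2 (with 1 higher, so 8 called, and 29.3%), 14 with array weights (with 2 higher, so 16 called, and 37.4%) and 11 without the libraries with Xist reads (30.7%). Among the proteasome genes the shares called in either direction were 10.4%, 2.04%, 15.2%, 16.7%, 33.3% and 22.9% in the same order. Each was below the share of all genes called in either direction. Over all genes, those called lower were 1935, 1530, 1730, 2026, 2891 and 2410 in the same order. These were out of 14212, 24888, 11487, 14154, 14212 and 14212 tested. By these counts the proteasome share called lower was not always below that of all genes. EdgeR called 1 higher. Leaving out a library gave 1 to 10 lower, 0 to 3 higher and 1 to 10 called, the most without SPOP_CKI 3. There 31.0% of all genes were called in either direction, and 2456 of 14212 were lower. Over all genes, array weights gave 2429 higher and 2891 lower, and leaving out a library gave 889 to 1944 higher and 1063 to 2456 lower. Quantile normalization moved the median log2 fold change of all genes to 0.03, against -0.11 in the fit reported. Genes of the accessory list called lower were 10 with array weights and 5 to 10 with a library left out. Across alternatives the beta ring median was -0.75 to -0.30 and the alpha ring median -0.27 to 0.08. Without the libraries with Xist reads, the log2 ratio differences were 0.39 for Psmb8 to Psmb5, 1.14 for catalytic ratio Psmb9 to Psmb6 and 1.06 for Psmb10 to Psmb7, with exact permutation p of 0.829, 0.0857 and 0.0857. With a library left out, that of Psmb8 to Psmb5 was -0.70 to 0.19, that of Psmb9 to Psmb6 -0.29 to 0.68, and the catalytic ratio Psmb10 to Psmb7 0.0652 to 0.811, where 0.811 without SPOP_CKI 3 had an exact permutation p of 0.0476. The replicate block called 2 proteasome genes. Under the block Psmb7 and Akirin2 were not called, at adjusted p of 0.0596 and 0.0806 by limma, and Nfe2l1 was called, at 0.041. Libraries with the same number correlated at 0.03 to 0.16 in their deviations, and the labels tie the numbers to nothing, so the numbers were not read as pairs. For the ratios, the block with 5 differences cannot reach p under 0.05.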
